A study of Arabidopsis thaliana with 96 samples.

Results

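The genes described here are GSTU22 (AT1G78340), GSTU26 (AT1G17190), GSTU27 (AT3G43800) and GSTU28 (AT1G53680), which encode tau class glutathione transferases of Arabidopsis thaliana. They were listed by name with earlier results of these data known, and each has a probe set paired with exactly 1 gene. They are 4 of the 13356 genes with such a probe set. Of 24 other tau class genes 7 also have one, so the 4 do not stand for the class. Each of the 4 has 1 probe set on the Affymetrix ATH1 array, and each passed the filter on low values. RNA was measured on 96 arrays of cells sorted from Columbia seedling roots 5 to 7 days after germination, after the root was digested to protoplasts. In salt medium seedlings spent 1, 3, 8, 20, 32 or 48 h on 140 mM NaCl, and in standard medium they spent 1 or 48 h without the added salt. Both media were sampled in 4 cell types, each carrying its own green fluorescent protein reporter: WER::GFP for the epidermis, COR::GFP for the cortex, SCR::GFP for the endodermis and WOL::GFP for the stele. Each of the 32 groups has 3 arrays. A reporter promoter marks the cells in which it is active, and a difference between cell types cannot be told apart from one between reporter lines or sorts. Nothing in the labels says that replicates came from separate cultures, so p-values measure only how far these samples spread, and part of that spread may be technical.

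Glutathione transferases join the tripeptide glutathione to electrophilic compounds, which makes them more water-soluble and marks them for transport into the vacuole. Some also reduce peroxides with glutathione, or bind ligands without changing them. The tau class is found in plants, has many members in Arabidopsis, often stands in tandem arrays on the chromosome, and is known for members that are induced by herbicides, oxidised lipids and stress hormones. Levels are log2 expression values as the authors made them, so a difference of 1 is 2-fold. Levels are compared between samples for 1 probe set at a time and never between genes, since probe sets differ in brightness.

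Arrays of one group correlated at 0.916 to 0.997 over the genes tested (median 0.982), and 3 arrays fell under a mean of 0.95 with the other arrays of their group: replicates 1 and 3 of the epidermis in standard medium at 48 h and replicate 3 of the stele in standard medium at 1 h. Few defining markers have a single-gene probe set here, namely 2 of 5 for the epidermis, 3 of 3 for the cortex, 1 of 7 for the endodermis, 1 of 8 for the stele and 0 of 3 for the root cap. In standard medium GSO1, an endodermal receptor kinase of the Casparian strip, averaged 10.32 ± 0.07 in the endodermis, against 8.72 ± 0.32 for cortex, 8.62 ± 0.70 for stele and 4.62 ± 0.55 for epidermis (SD, n = 6 each). The cortex marker AT1G62510 averaged 10.34 ± 0.26 in the cortex, but also 9.62 ± 0.36 (endodermis) and 8.18 ± 0.46 (stele). AT1G09750 averaged 7.21 ± 1.05 in the cortex, against 5.67 ± 0.31 (endodermis), 3.44 ± 0.24 (stele) and 3.53 ± 0.33 (epidermis), and its lowest cortex array lay above every array of the other sorts. The third cortex marker, AT1G62500, had group means of 2.69 to 3.20 throughout. The root hair expansin EXPA7 averaged 9.16 ± 1.47 in the epidermis and 9.99 ± 0.40 in the stele, and the stele marker LHW averaged 4.54 ± 0.50 in the stele and 4.57 ± 0.23 in the endodermis, so neither separated its own sort from the others.

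In standard medium all 4 transcripts were read in every cell type, and GSTU22 had a level that differed more than 2-fold between cell types. Its 6 epidermis arrays ran between 12.26 and 12.60 (median 12.36), against 11.49 to 11.90 (median 11.68) for stele, 11.10 to 11.43 (median 11.30) for cortex and 10.86 to 11.37 (median 11) for endodermis. The epidermis arrays all lay above those of the other cell types, the stele came next and apart from the cortex and endodermis, and the cortex and endodermis overlapped. Against the mean of the other 3 cell types GSTU22 was 1.07 higher in the epidermis (SE 0.10, limma adjusted p = 2.61e-16), a call that 6.04% of all 7281 genes tested received for the epidermis. The other 15 tests of this kind gave no call for the 4 genes, although 6 of them passed the adjusted p, and 3.74%, 6% and 4.81% of all genes were called for cortex, endodermis and stele. By pairs GSTU22 was 1.13 higher in the epidermis than in the cortex (adjusted p = 1.73e-13) and 1.35 higher than in the endodermis (adjusted p = 7.5e-17), where 17.3% and 21.2% of all genes were called. Its epidermis-stele difference of 0.73 (adjusted p = 1.28e-07) was under 2-fold. The cortex-endodermis difference of 0.22 had an interval of -0.01 to 0.45 and did not pass (adjusted p = 0.121). No other pair gave a call for any of the 4 genes, where 19.2% of all genes were called for epidermis-stele, 9.05% for cortex-endodermis, 8.14% for cortex-stele and 10.1% for endodermis-stele.

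GSTU27 went the other way across the tissues, with the epidermis at the low end. It averaged 10.27 ± 0.24 (endodermis), 10.21 ± 0.26 (cortex), 9.74 ± 0.59 (stele) and 9.34 ± 0.44 (epidermis), with SD over 6 arrays each. The epidermis arrays overlapped those of the stele and of the cortex. The epidermis was 0.93 lower than the endodermis (adjusted p = 1.54e-06) and 0.87 lower than the cortex (adjusted p = 7.51e-06), both under 2-fold. GSTU26 spread over less than 2-fold, with the cortex at 10.89 ± 0.08, endodermis at 10.84 ± 0.29, stele at 10.84 ± 0.37 and epidermis at 10.43 ± 0.24 (SD, n = 6 each). Its epidermis was lower than the cortex by 0.46 (adjusted p = 0.00603), than the endodermis by 0.40 (adjusted p = 0.0132) and than the stele by 0.40 (adjusted p = 0.013). With all arrays kept GSTU28 lay closest together, with the stele at 9.66 ± 0.48, endodermis at 9.63 ± 0.24, epidermis at 9.53 ± 1.21 and cortex at 9.37 ± 0.24 (SD, n = 6 each). None of its 6 pairs of cell types passed the test (adjusted p between 0.438 and 0.932, also 0 at an unadjusted p under 0.05). The wide epidermal spread of GSTU28 came from 1 array: the epidermis read 7.15, 9.62 and 10.48 in standard medium at 48 h and 9.78, 9.80 and 10.34 at 1 h, and the value of 7.15 belongs to replicate 1, one of the arrays that stood apart. Without it the epidermis-cortex difference of GSTU28 was 0.64 (adjusted p = 0.0311), against 0.16 with it. That of GSTU26 was -0.39 without the same array, so which gene lay closest together rests on that array.

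From 1 h to 48 h on standard medium none of the 16 tests of a member in a cell type gave a call with limma, and 4 had an unadjusted p under 0.05. Of all genes 1.87% were called for epidermis, 2.36% for cortex, 2.29% for endodermis and 6.28% for stele. GSTU27 in the stele came closest. It read 8.90, 9.53 and 9.34 at 48 h, against 10.52, 10.01 and 10.11 at 1 h, a difference of -0.96 (SE 0.24, adjusted p = 0.0017). The arrays of the 2 times did not overlap. Without the 3 arrays that stood apart the difference was -1.01 (adjusted p = 0.00436) and became a call. GSTU28 in the epidermis was 0.89 lower at 48 h (adjusted p = 0.208), and without replicate 1 at 48 h the difference was 0.08 (adjusted p = 0.972).

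**Figure D1:**
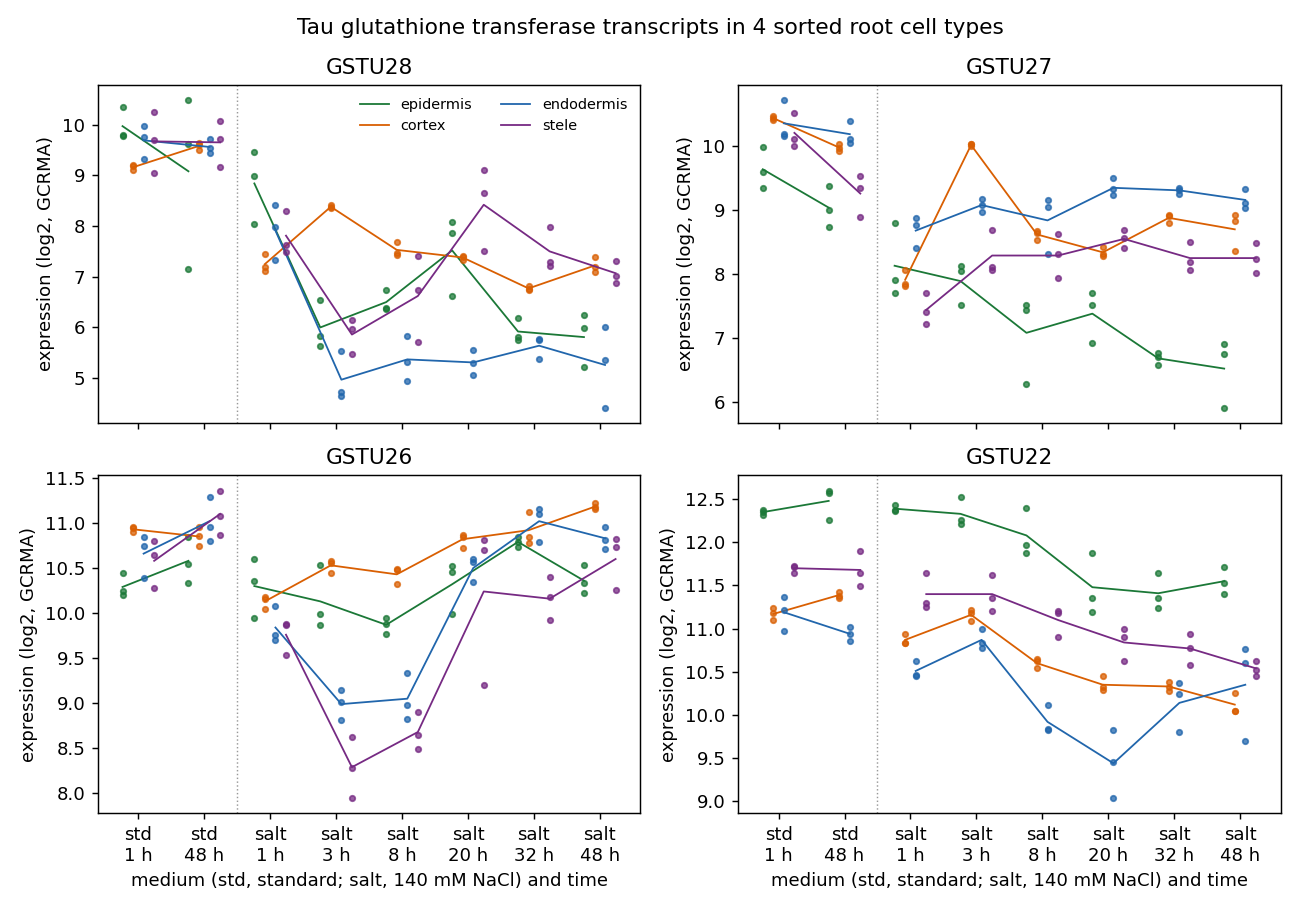
Levels of the 4 tau transferase transcripts (log2, GCRMA) on every array. Points are arrays, lines join group means within a medium, colours are cell types, and the dotted line separates standard medium (1 h and 48 h) from 140 mM NaCl (1 to 48 h). GSTU28 stays between 4.42 and 6.0 in the endodermis from 3 h of salt on, against 9.33 to 9.98 in standard medium, while GSTU26 in the stele dips at 3 h and 8 h.

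On salt the 4 transcripts fell or gave no call, and none rose. Each salt time was set against the 1 h and 48 h standard groups of its tissue, weighted equally, that is 3 arrays against 6, and a call needed at least a 2-fold change together with an adjusted p under 0.05. Of the 96 comparisons (4 genes, 4 cell types, 6 times) 53 were called, all 53 lower, and 0 had an unadjusted p under 0.05 in the higher direction. Over all genes tested 9.8% of the comparisons were called lower and 9.25% higher. The 4 genes were chosen with earlier results of these data known, so this contrast describes them and not their class. In 70 of the 96 all 3 salt arrays lay below all 6 standard arrays, and in 1 (GSTU26 in the cortex at 48 h) all lay above. The median change over the 96 was -1.16, beside 0.07 over all genes. That median over all genes was above 0.1 at 1, 3, 8 and 20 h in the epidermis (0.13, 0.12, 0.14 and 0.16) and at 32 and 48 h in the stele (0.14 and 0.13), which is small beside the called changes. All 6 salt times of one tissue are set against the same standard arrays, and no standard group at 3, 8, 20 or 32 h was used here. In sorted bulk samples, fewer cells of a type that holds the transcript and less of it per cell cannot be told apart.

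Counted by tissue, 12 of 24 comparisons were called for epidermis, 11 for cortex, 14 for endodermis and 16 for stele. In the epidermis 1, 2, 2, 2, 3 and 2 of the 4 genes fell at 1, 3, 8, 20, 32 and 48 h, where 3.56%, 9.39%, 9.7%, 10.3%, 12.5% and 13.5% of all genes fell. In the cortex 2, 0, 2, 2, 2 and 3 of the 4 fell, where 6.81%, 3.32%, 8.89%, 9.86%, 11.1% and 9.78% of all genes fell. At 3 h in the cortex 2 of the 4 had an unadjusted p under 0.05, both lower. In the endodermis 2, 3, 4, 2, 1 and 2 of the 4 fell, where 8.64%, 13.3%, 12.7%, 11.4%, 11.4% and 13% of all genes fell. In the stele 3, 3, 3, 2, 2 and 3 of the 4 fell, where 8.17%, 11.6%, 9.35%, 6.95%, 9.05% and 10.8% of all genes fell. Counted by gene, GSTU28 fell in 22 of its 24 comparisons, GSTU27 in 21, and GSTU26 and GSTU22 in 5 each. As many or more lower calls were made for 1.91% of all genes at the count of GSTU28, for 2.39% at that of GSTU27 and for 17% at that of GSTU26 and GSTU22.

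**Figure D2:**
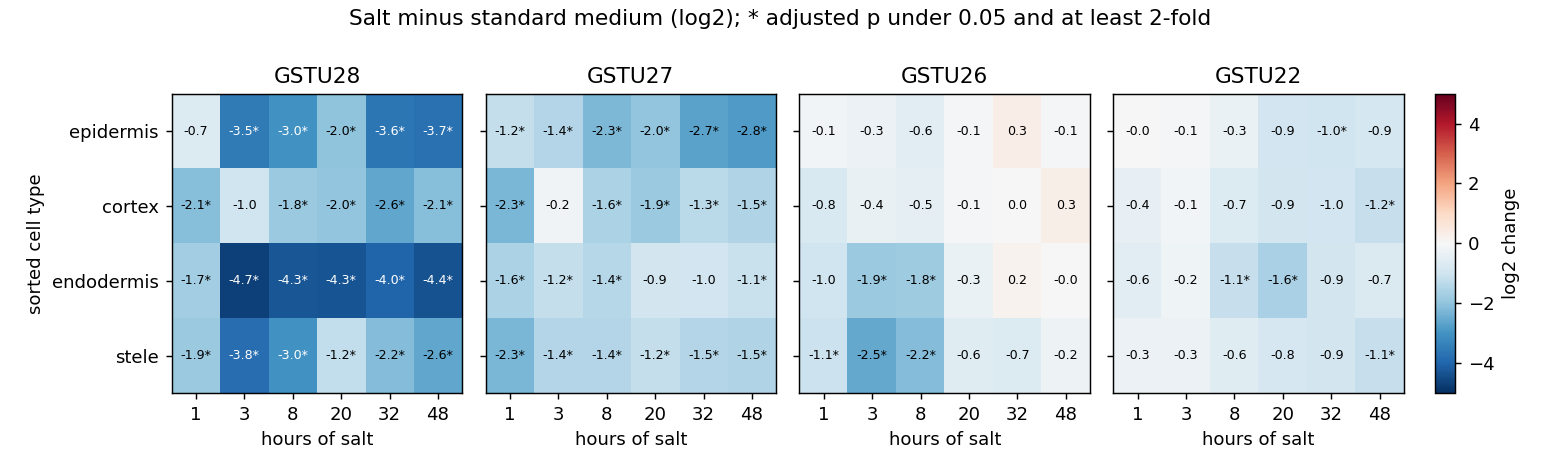
Salt minus standard medium (log2) for each gene, cell type (down) and hour of salt (across, not to scale), 3 salt arrays against 6 standard arrays. Blue is lower on salt, and an asterisk marks an adjusted p under 0.05 with at least a 2-fold change. GSTU28 carries 22 and GSTU27 carries 21 of the 53 asterisks, and GSTU26 is marked at 1, 3 and 8 h alone, in the endodermis and stele.

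GSTU28 had the largest single fall of the 4, in the endodermis at 3 h, and it fell in every tissue. There it read 7.33, 8.41 and 7.98 after 1 h of salt, 5.54, 4.73 and 4.65 after 3 h and 5.84, 5.32 and 4.95 after 8 h. It then read 5.56, 5.30 and 5.07 after 20 h, 5.38, 5.78 and 5.76 after 32 h and 4.42, 6.0 and 5.35 after 48 h, against 9.33 to 9.98 (median 9.62) in standard medium. All 18 salt arrays lay below all 6 standard arrays, and from 3 h on the times overlapped one another. The change was -1.72 at 1 h (adjusted p = 6.53e-05) and -4.66 at 3 h (adjusted p = 3.26e-18), which is 25.2-fold lower, and it lay between -4.37 and -3.99 from 8 to 48 h (SE 0.36 throughout). The 3 h mean of 4.97 is under the filter value of 5, so the size of that fall is uncertain.

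In the stele GSTU28 fell early and was then higher again, though still below standard. It read 7.49, 8.30 and 7.62 after 1 h, 5.48, 6.14 and 5.96 after 3 h and 7.41, 6.74 and 5.71 after 8 h. It read 8.65, 7.5 and 9.11 after 20 h, 7.30, 7.21 and 7.98 after 32 h and 7.01, 6.87 and 7.32 after 48 h, against 9.05 to 10.25 (median 9.71) in standard medium. Of the 6 salt times 20 h was the one that overlapped the standard arrays. The changes were -1.86, -3.80, -3.04, -1.24, -2.16 and -2.59 in order of time, with the weakest call at 20 h (adjusted p = 0.00321). That call rests on replicate 2 at 20 h, without which the change was -0.78 (adjusted p = 0.112).

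In the epidermis GSTU28 read 8.99, 8.05 and 9.47 after 1 h of salt, 5.64, 6.54 and 5.83 after 3 h and 6.37, 6.38 and 6.74 after 8 h. It read 7.87, 6.63 and 8.08 after 20 h, 5.76, 5.81 and 6.18 after 32 h and 6.24, 5.22 and 5.98 after 48 h, against 7.15 to 10.48 (median 9.79) in standard medium. The salt arrays at 1 h and 20 h overlapped the standard arrays, and those of the other 4 times lay below them. The changes were -0.69 at 1 h (adjusted p = 0.116), then -3.52, -3.03, -2.0, -3.61 and -3.72 (highest adjusted p = 1.99e-06). With the low standard array left out the changes were -1.17 at 1 h (adjusted p = 0.00208, a call) and -4.01, -3.52, -2.49, -4.09 and -4.20 after that.

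The cortex gave GSTU28 a narrower course with little spread. It read 7.20, 7.45 and 7.11 after 1 h of salt, 8.35, 8.42 and 8.38 after 3 h and 7.69, 7.47 and 7.43 after 8 h. It read 7.38, 7.41 and 7.34 after 20 h, 6.81, 6.76 and 6.74 after 32 h and 7.39, 7.09 and 7.19 after 48 h, against 9.10 to 9.63 (median 9.35) in standard medium. All 18 salt arrays lay below the standard arrays, and the 3 h arrays lay above those of every other salt time. The changes were -2.11, -0.98, -1.84, -1.99, -2.60 and -2.14, of which 3 h (adjusted p = 0.0247) was just under 2-fold and the others were called (highest adjusted p = 1.67e-05).

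Several cell type markers and the array's RNA control probes also moved on salt, and the markers did not all move the same way. EXPA7 was called lower in 16 of the 24 salt comparisons and EXPA18, a second root hair expansin, in 13. In the endodermis EXPA7 averaged 8.94, 5.94, 6.52, 6.06, 6.19 and 4.43 in the 6 salt groups, against 9.08 ± 0.78 (SD, n = 6) in standard medium. Over the 32 group means EXPA7 correlated with GSTU28 at r = 0.865, with GSTU22 at 0.453, with GSTU27 at 0.305 and with GSTU26 at 0.0504, points that share arrays and tissues. AT1G62510 was called lower in 23 of 24 and correlated with GSTU27 at 0.701, with GSTU28 at 0.553, with GSTU26 at 0.522 and with GSTU22 at -0.224. For the next markers r is given with GSTU28, GSTU27, GSTU26 and GSTU22 in that order. The cortex marker AT1G09750, lower in 8 of 24, gave 0.302, 0.489, 0.492 and -0.295. AT1G62500, the third cortex marker, gave 0.097, 0.605, 0.129 and -0.367. GSO1 was lower in 8 of 24 and gave -0.00493, 0.629, -0.109 and -0.634. LHW was higher in 5 of 24, lower in 0, and gave -0.622, -0.226, -0.092 and -0.628. The summed level of the epidermis markers ran between 4.81 and 9.48 in endodermis salt arrays and between 8.61 and 10.72 in endodermis standard arrays, and that of the cortex markers between 4.88 and 7.69 on salt and 9.23 and 10.21 in standard medium. The summed level of the epidermis markers ran between 6.49 and 10.87 in epidermis salt arrays and between 7.12 and 11.34 in epidermis standard arrays, and in the stele between 7.6 and 11.29 on salt and 10.11 and 11.37 in standard medium. In cortex arrays the cortex markers summed to 7.92 to 9.80 on salt and 10.35 to 10.69 in standard medium, and the epidermis markers to 7.99 to 9.60 on salt and 9.72 to 9.87 in standard medium, both without overlap. For the cortex markers the sums ran between 4.57 and 6.69 in stele salt arrays and 7.79 and 8.92 in stele standard arrays. GSO1, the 1 endodermis marker, ran between 9.31 and 11.38 in endodermis salt arrays and 10.20 and 10.39 in endodermis standard arrays. LHW, the 1 stele marker, ran between 4.77 and 6.25 in stele salt arrays and 4.10 and 5.50 in stele standard arrays. The 3′ minus 5′ difference of the GAPDH control probes exceeded that of every endodermis standard array at 1, 3, 8 and 48 h of salt (1.43, 0.85, 0.89 and 0.71 against 0.48 ± 0.15). Elsewhere it lay above them at 3 h in the cortex, and that of the actin control probes did so at 48 h in the epidermis and at 32 and 48 h in the cortex. The part of markers and of RNA quality in the changes of the 4 genes was not tested.

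GSTU27 fell in 21 of its 24 comparisons, already at 1 h in all 4 tissues, and in the epidermis it was lower at 48 h than at 3 h of salt. In the epidermis it read 7.90, 7.70 and 8.80 after 1 h of salt, 8.12, 7.51 and 8.05 after 3 h and 6.28, 7.44 and 7.52 after 8 h. It read 7.70, 6.92 and 7.52 after 20 h, 6.57, 6.70 and 6.76 after 32 h and 6.75, 5.91 and 6.90 after 48 h, against 8.74 to 9.99 (median 9.37) in standard medium. One array at 1 h overlapped the standard arrays and the other 17 salt arrays lay below them. The changes were -1.21, -1.45, -2.26, -1.96, -2.67 and -2.82 (SE 0.21, highest adjusted p = 2.12e-06), so that at 48 h the level was 7.07-fold lower. Against the 48 h standard arrays alone the change at 1 h was -0.91, under the 2-fold limit.

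The cortex showed a break at 3 h for GSTU27. It read 7.82, 7.85 and 8.06 after 1 h of salt, 10.03, 10.01 and 10.03 after 3 h and 8.67, 8.53 and 8.65 after 8 h. It read 8.28, 8.42 and 8.32 after 20 h, 8.93, 8.80 and 8.91 after 32 h and 8.83, 8.92 and 8.36 after 48 h, against 9.92 to 10.47 (median 10.22) in standard medium. The 3 h arrays lay inside the standard range, while the arrays of the other 5 times lay below it. The change was -2.30 at 1 h (adjusted p = 3.23e-15), -0.19 at 3 h (interval -0.60 to 0.22, adjusted p = 0.482) and between -1.87 and -1.33 at 8 to 48 h (highest adjusted p = 5.28e-08). GSTU28 had its smallest change in the cortex at the same time, and 3 h was also the time with the fewest genes of all called lower there, 3.32%.

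In the stele GSTU27 read 7.40, 7.71 and 7.22 after 1 h of salt, 8.11, 8.69 and 8.07 after 3 h and 8.62, 7.94 and 8.31 after 8 h. It read 8.41, 8.69 and 8.56 after 20 h, 8.06, 8.50 and 8.19 after 32 h and 8.24, 8.01 and 8.49 after 48 h, against 8.90 to 10.52 (median 9.77) in standard medium. All 18 salt arrays lay below the standard arrays, and the 1 h arrays were the lowest of them. The changes were -2.30 at 1 h (adjusted p = 2.8e-15) and -1.45, -1.45, -1.18, -1.48 and -1.49 after that (highest adjusted p = 1.9e-06). The changes at 3, 8 and 20 h were -0.97, -0.97 and -0.70 against the 48 h standard arrays alone, under 2-fold, the standard level itself being lower at 48 h than at 1 h.

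In the endodermis GSTU27 read 8.77, 8.41 and 8.87 after 1 h of salt, 9.18, 8.97 and 9.08 after 3 h and 8.31, 9.05 and 9.16 after 8 h. It read 9.33, 9.23 and 9.5 after 20 h, 9.32, 9.26 and 9.35 after 32 h and 9.33, 9.04 and 9.12 after 48 h, against 10.05 to 10.72 (median 10.18) in standard medium. Again all 18 salt arrays lay below the 6 standard arrays. The changes were -1.59, -1.20, -1.43, -0.92, -0.96 and -1.11, of which those at 20 h (adjusted p = 7.82e-05) and 32 h (adjusted p = 4.51e-05) were under 2-fold and the other 4 were called (highest adjusted p = 3.28e-06).

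GSTU26 was called lower in the inner tissues alone, early, and came back. In the stele it read 9.87, 9.88 and 9.54 after 1 h of salt, 8.63, 7.95 and 8.28 after 3 h and 8.65, 8.49 and 8.90 after 8 h. It read 10.70, 9.20 and 10.81 after 20 h, 10.18, 9.92 and 10.40 after 32 h and 10.26, 10.73 and 10.82 after 48 h, against 10.28 to 11.36 (median 10.84) in standard medium. The arrays of the first 3 times lay below the standard arrays, and those of the last 3 overlapped them. The changes were -1.08 at 1 h (SE 0.18, adjusted p = 8.76e-07), -2.55 at 3 h (adjusted p = 3.47e-20), which is 5.87-fold lower, and -2.16 at 8 h (adjusted p = 7.82e-17). They were -0.60 (adjusted p = 0.00391), -0.67 (adjusted p = 0.001) and -0.24 (adjusted p = 0.247) at 20, 32 and 48 h, none of them a call. The value at 20 h was -0.08 without replicate 2, and the call at 1 h was lost without replicate 3 of that group (-0.96) and against the 1 h standard arrays alone (-0.81).

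In the endodermis GSTU26 read 10.08, 9.70 and 9.76 after 1 h of salt, 9.15, 8.81 and 9.01 after 3 h and 8.83, 8.98 and 9.34 after 8 h. It read 10.60, 10.34 and 10.57 after 20 h, 11.10, 10.79 and 11.16 after 32 h and 10.95, 10.71 and 10.81 after 48 h, against 10.39 to 11.29 (median 10.82) in standard medium. As in the stele, the first 3 times lay below the standard arrays and the last 3 overlapped them. The changes at 3 h (-1.85, adjusted p = 3.79e-14) and 8 h (-1.79, adjusted p = 1.18e-13) were called, and that at 1 h (-0.99, adjusted p = 4.52e-06) fell just short of 2-fold. The 32 h and 48 h changes were 0.18 and -0.01, with intervals of -0.18 to 0.54 and -0.37 to 0.35.

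In the outer tissues GSTU26 gave 0 calls at the 12 comparisons of the epidermis and cortex, where limma gave an unadjusted p under 0.05 at 1 time in the epidermis and 3 times in the cortex, all lower. In the epidermis its group means on salt ran between 9.87 at 8 h and 10.79 at 32 h, against 10.43 ± 0.24 (SD, n = 6) in standard medium. In the cortex it read 10.16, 10.05 and 10.18 after 1 h of salt and 11.15, 11.22 and 11.18 after 48 h, against 10.74 to 10.95 (median 10.92) in standard medium. The 1 h arrays all lay below the cortical standard arrays and the 48 h arrays all above them, with changes of -0.76 (adjusted p = 0.000389) and 0.29 (adjusted p = 0.157), and neither reached 2-fold. At 1 h the cortical response was not told apart from the endodermal (difference 0.23, limma adjusted p = 0.566) or the stelar one (0.31, adjusted p = 0.497).

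GSTU22 fell by 2-fold or more in 5 of its 24 comparisons, none of them at 1 h or 3 h. In the endodermis it read 10.62, 10.46 and 10.45 after 1 h of salt, 11, 10.77 and 10.83 after 3 h and 10.11, 9.82 and 9.84 after 8 h. It read 9.45, 9.82 and 9.04 after 20 h, 10.37, 10.24 and 9.80 after 32 h and 9.70, 10.76 and 10.60 after 48 h, against 10.86 to 11.37 (median 11) in standard medium. The 3 h arrays overlapped the standard arrays and those of the other 5 times lay below. The changes at 8 h (-1.14, SE 0.14, adjusted p = 2.01e-10) and 20 h (-1.63, adjusted p = 5.57e-16) were called, and those at 1, 32 and 48 h (-0.56, -0.93 and -0.71) passed the adjusted p without reaching 2-fold.

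Elsewhere GSTU22 was called once in each tissue. In the cortex at 48 h of salt it read 10.26, 10.05 and 10.05, against 11.10 to 11.43 (median 11.30) in standard medium, a change of -1.16 (adjusted p = 1.74e-10). In the stele at 48 h it read 10.52, 10.63 and 10.45, against 11.49 to 11.90 (median 11.68), a change of -1.15 (adjusted p = 1.82e-10). In the epidermis at 32 h it read 11.35, 11.24 and 11.65, against 12.26 to 12.60 (median 12.36), a change of -1.0 (adjusted p = 5.03e-09). None of these groups overlapped the standard arrays. The epidermal change lay on the 2-fold limit, and leaving out single arrays moved it between -1.12 and -0.91 and lost the call in 6 of 9 refits. Despite these falls the epidermis kept the highest GSTU22 level of the 4 tissues at all 6 salt times.

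The 4 tissues answered salt differently for GSTU28, GSTU27 and GSTU26. The moderated F test across the 4 responses with a range of at least 2-fold made 13 calls among the 24 tests of a gene at a time, 5 for GSTU28, 5 for GSTU27, 3 for GSTU26 and 0 for GSTU22, which had an adjusted p under 0.05 at 2 times. By time 1, 3, 2, 2, 3 and 2 of the 4 genes were called at 1, 3, 8, 20, 32 and 48 h, where 21.4%, 34.5%, 28.1%, 30.5%, 29.4% and 26.8% of all genes were. At 3 h GSTU28 differed by 3.67 between the cortex (-0.98) and the endodermis (-4.66), with an adjusted p of 6.76e-08 for that pair. Pairs of tissues were compared after the values were seen, and 35 of the 144 differences (4 genes, 6 pairs, 6 times) were called. Of all genes 3.74% to 18.9% were called, depending on the pair and time. At 1 h GSTU27 fell less in the epidermis than in the cortex (difference 1.09, adjusted p = 0.00925) and than in the stele (1.09, adjusted p = 0.00551), where 3.74% and 6.83% of all genes were called. The other pairs gave no call at 1 h, where 10.8% of all genes were called for epidermis-endodermis, 4.93% for cortex-endodermis, 5.32% for cortex-stele and 9.94% for endodermis-stele.

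At 3 h the cortex lay closer to its standard level than the inner tissues did to theirs for 3 of the 4 genes. It had not kept that level throughout, since at 1 h GSTU27 and GSTU28 had changed there by -2.30 and -2.11. The cortex-endodermis difference of responses was called for GSTU28 (3.67), GSTU26 (1.49, adjusted p = 5.35e-06) and GSTU27 (1.01, adjusted p = 0.00581), where 9.92% of all genes were called. The cortex-stele difference was called for GSTU28 (2.82, adjusted p = 1.55e-05), GSTU26 (2.19, adjusted p = 3.78e-10) and GSTU27 (1.26, adjusted p = 0.000514), where 12.8% of all genes were. For GSTU26 the epidermis resembled the cortex, with a difference of 0.06 (interval -0.45 to 0.57), and differed from the stele by 2.25 (adjusted p = 1.89e-10) and from the endodermis by 1.54 (adjusted p = 1.13e-06), where 13.1% and 18.9% of all genes were called. The epidermis-cortex difference was -2.54 for GSTU28 (adjusted p = 9.8e-05) and -1.26 for GSTU27 (adjusted p = 0.000538), the larger fall being epidermal in both, where 10.8% of all genes were called.

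At 8 h the inner tissues still stood apart for GSTU26. Its cortex-stele difference was 1.7 (adjusted p = 5.18e-07) and its epidermis-stele difference 1.59 (adjusted p = 1.61e-06), where 9.01% and 9.37% of all genes were called. Against the endodermis both outer tissues differed for GSTU26 (cortex 1.33, epidermis 1.22) and for GSTU28 (cortex 2.42, epidermis 1.23), where 7.35% and 16% of all genes were called. The epidermal difference of GSTU28 had a limma adjusted p of 0.0461 and rested on the low epidermis standard array. Without that array the epidermal change was -3.52, against -4.26 in the endodermis, which is less than 2-fold apart. At 20 h GSTU28 fell further in the endodermis than in the stele, with a difference of -3.07 (adjusted p = 2.61e-06), where 15.1% of all genes were called. It fell further there also than in the cortex (2.33) and than in the epidermis (2.31), where 7.95% and 13% of all genes were called. GSTU27 fell further in the epidermis than in every other tissue at 32 h and 48 h. At 32 h its epidermal difference from the endodermis was -1.71, from the cortex -1.34 and from the stele -1.18, where 14.4%, 9.55% and 15.2% of all genes were called. At 48 h the differences were -1.71 from the endodermis (adjusted p = 3.23e-06), -1.33 from the stele (adjusted p = 0.000308) and -1.31 from the cortex (adjusted p = 0.000341), where 11.6%, 10.9% and 10.6% of all genes were called.

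The change over the 6 salt times, tested within each tissue, was called in 12 of 16 tests of a gene in a cell type. All 4 tissues were called for GSTU28, 3 each for GSTU26 (not the epidermis) and GSTU27 (not the endodermis), and 2 for GSTU22 (the cortex and endodermis). By tissue 2 of the 4 genes were called for epidermis, 4 for cortex, 3 for endodermis and 3 for stele, where 26.7%, 26.5%, 30.3% and 21.9% of all genes were. The widest courses were those of GSTU28 in the epidermis (3.03 between its highest and lowest salt time, adjusted p = 2.45e-09) and in the endodermis (2.94, adjusted p = 3.07e-08). GSTU27 in the endodermis had a range of 0.67 (adjusted p = 0.0534).

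Set against 3 h of salt, 48 h of salt was higher for GSTU26 in the inner tissues and for GSTU28 in the stele and lower for 4 tests of a gene in an outer tissue, in a comparison chosen after the values were seen. It gave 7 calls in 16 tests of a gene in a tissue. In the stele GSTU26 rose by 2.32 (SE 0.21, adjusted p = 1.92e-14) and GSTU28 by 1.21 (SE 0.42, adjusted p = 0.0175), where 6.63% of all genes rose and 3.46% fell. In the endodermis GSTU26 rose by 1.84 (adjusted p = 6.03e-11), where 4.57% of all genes rose and 3.41% fell. In the cortex GSTU27 fell by 1.32 (adjusted p = 1.62e-05), GSTU28 by 1.16 (adjusted p = 0.0408) and GSTU22 by 1.04 (adjusted p = 1.18e-06), where 2.79% of all genes rose and 2.82% fell. There 3 h was the salt time with the highest mean for each of these genes. Their cortical means at 1 h of salt were 7.91 (GSTU27), 7.25 (GSTU28) and 10.87 (GSTU22), against 8.70, 7.22 and 10.12 at 48 h. In the epidermis GSTU27 fell by 1.37 (adjusted p = 1.07e-05), where 1.77% of all genes rose and 2.83% fell. GSTU28 in the endodermis gave no call, at 0.29 (adjusted p = 0.629).

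Over all 32 groups the means of GSTU28 ran between 9.97 (epidermis, standard medium at 1 h) and 4.97 (endodermis, 3 h of salt). That is a 32-fold span, of uncertain size because its lower end is under the filter value of 5. The means of GSTU27 ran between 10.44 (cortex, standard medium at 1 h) and 6.52 (epidermis, 48 h of salt), a span of 15.2-fold. The spans of GSTU22 and GSTU26 were 8.23-fold and 7.44-fold, and their lowest groups were the endodermis at 20 h of salt (9.44) and the stele at 3 h of salt (8.29). Each of the 4 genes thus had its lowest mean in a different group.

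The 4 profiles were alike for some pairs and unrelated for others. GSTU27 and GSTU28 correlated at r = 0.512 over the 32 group means and at 0.896, 0.843, 0.713 and 0.698 over the 8 conditions within the epidermis, cortex, endodermis and stele. GSTU22 and GSTU26 correlated at -0.0772 over the 32 group means. GSTU26 and GSTU28 correlated at 0.82 within the stele but at 0.0785 within the epidermis. These correlations describe group means that share arrays, and 8 points a tissue are few.

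Among all genes tested, the 3 whose 32 group means correlated best with GSTU28 were AT3G07900 (r = 0.96), AT3G07070 (0.944) and AT5G01700 (0.94), which were called lower on salt in 22, 22 and 24 of 24 comparisons. For GSTU27 they were AT3G02460 (0.914), the glucosyltransferase gene UGT74D1 (0.896) and AT3G56230 (0.884), lower in 19, 16 and 24. For GSTU22 they were AT2G21550 (0.921), AT5G49680 (0.888) and AT1G15490 (0.887), lower in 9, 7 and 6. For GSTU26 the correlations were lower, with AT4G29270 (0.868), AT5G57340 (0.79) and AT4G33640 (0.766), lower in 8, 2 and 2. Since these genes were picked for following each member over the same groups, their shared calls and tissues follow from the choice.

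**Figure D3:**
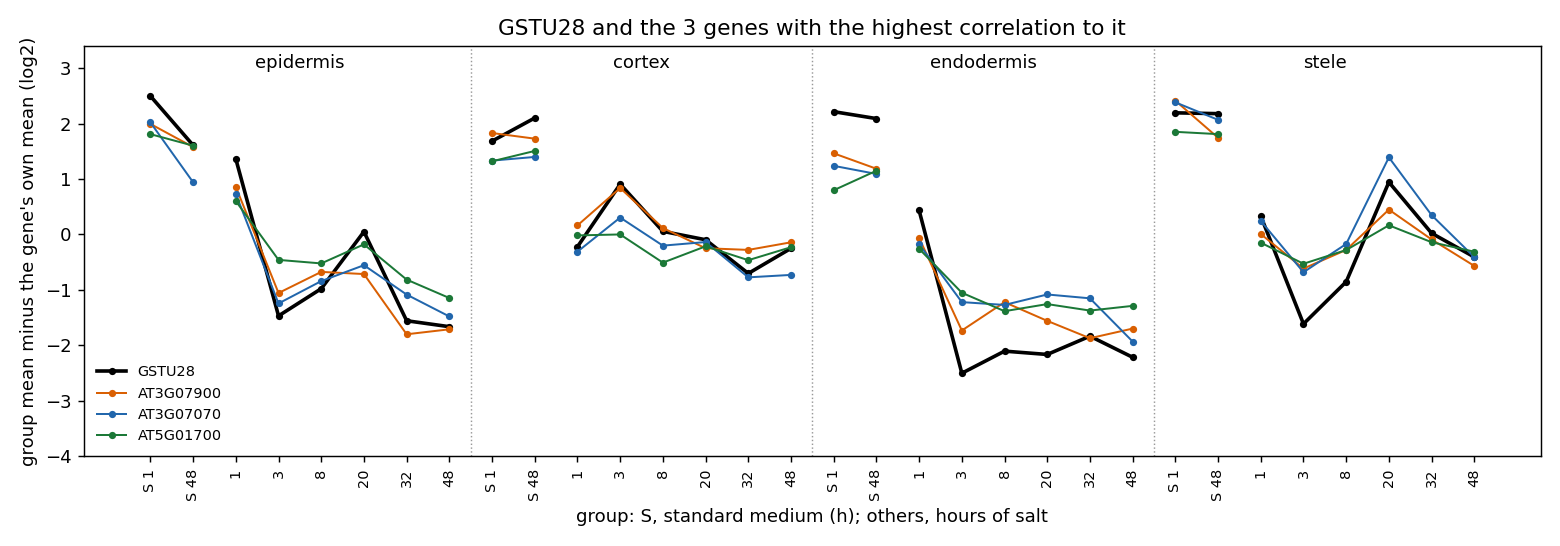
Group means of GSTU28 (black) and of the 3 genes that correlate best with it, each minus its own mean over the 32 groups (log2). Groups run by cell type, standard medium (S) first and then hours of salt. The 4 lines lie above 0 in every standard group and reach their lowest values in the endodermis on salt, and GSTU28 goes lower than the other 3 genes in the endodermis and stele at 3 h. In the endodermis at 3 h the means are 4.97 for GSTU28 and 3.63, 3.67 and 4.11 for the other genes. All are under the filter value of 5, so how far each line falls there is uncertain.

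Of 24 other tau class genes 7 have a single-gene probe set, and 3 of them passed the filter on low values: GSTU16, GSTU18 and GSTU25. Their 72 salt comparisons gave 11 calls higher, all for GSTU16, and 2 lower, both for GSTU18, with a median change of 0.16. GSTU16 in the endodermis read 7.11, 6.98 and 6.94 after 48 h of salt, against 4.55 to 5.33 (median 4.90) in standard medium. The groups did not overlap, and GSTU16 rose by 2.09 (SE 0.19, adjusted p = 1.55e-15), as it did at all 6 times in that tissue. These are the times at which GSTU28 fell in that tissue. The standard mean of GSTU16 there, 4.93, is under the filter value of 5, so the size of its rise is uncertain. GSTU18 in the stele read 3.93, 4.40 and 4.27 after 20 h, against 4.55 to 5.68 (median 5.36) in standard medium, a change of -1.06 (adjusted p = 2.49e-07) at levels near the filter.

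Some of the 4 genes have close relatives as chromosomal neighbours. In the TAIR10.1 gene order GSTU22 lies on chromosome 1 between GSTU23 and GSTU21, followed by GSTU20 and GSTU19. The 3 of these with a single-gene probe set, GSTU23, GSTU21 and GSTU20, had no group mean of 5 or more, the highest being 4.71 for GSTU20 in the stele at 3 h of salt. GSTU26 lies on chromosome 1 after GSTU24 and GSTU25, whereas GSTU27 on chromosome 3 and GSTU28 on chromosome 1 have no other transferase gene among the 3 genes on either side. GSTU25, known for conjugating the explosive TNT, changed by -0.45 to 0.57 over its 24 comparisons, with 0 calls and with an unadjusted p under 0.05 at 7 higher and 3 lower. In the stele at 3 h GSTU25 changed by 0.31 while GSTU26 beside it fell by 2.55.

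**Figure D4:**
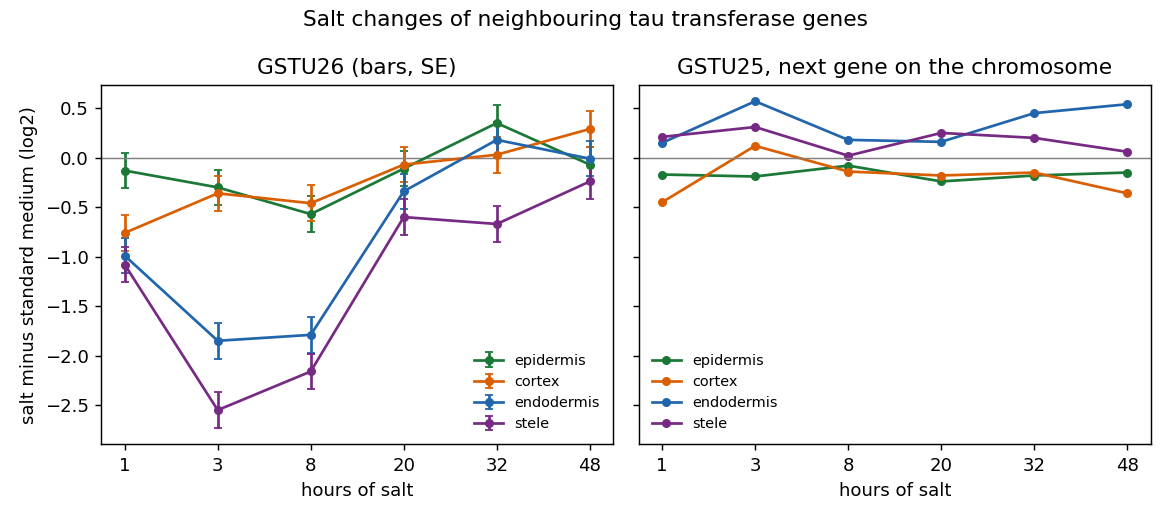
Salt minus standard medium (log2) for GSTU26 (left, bars are SE) and its chromosomal neighbour GSTU25 (right) in 4 cell types at 1 to 48 h of salt, spaced evenly. GSTU26 reaches -2.55 in the stele and -1.85 in the endodermis at 3 h and is near 0 at 48 h, while GSTU25 stays between -0.45 and 0.57.

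The wider glutathione and detoxification lists were thinly covered. Of 24 transferases of other classes 3 have a single-gene probe set and 1, the lambda class GSTL3, was tested. It gave 0 calls in 24 comparisons with limma (unadjusted p under 0.05 at 2 higher and 6 lower). Of 4 genes of glutathione synthesis and recycling 2 were tested, the glutathione reductases GR1 and GR (AT3G54660), with 1 call in 48. GR1, which returns oxidised glutathione to its reduced form in the cytosol and peroxisomes, read 11.53, 11.54 and 11.70 in the stele after 3 h of salt, against 10.28 to 10.86 (median 10.45) in standard medium. It rose by 1.08 (SE 0.10, adjusted p = 2.37e-14), at the time and in the tissue where GSTU26 was lowest. The lists of glutathione peroxidases, of conjugate transport and breakdown, and of TGA and SCL14 regulators had 0 genes with a single-gene probe set.

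Of 11 genes that respond to xenobiotics 4 were tested, and their 96 comparisons gave 27 calls higher and 0 lower (unadjusted p under 0.05 at 9 lower, 5 for UGT73B4 and 4 for UGT73B5), with a median change of 0.29. AER, an alkenal reductase that removes reactive carbonyls made from oxidised lipids, took 23 of the 27. In the endodermis it read 8.38, 8.15 and 8.27 after 48 h of salt, against 3.04 to 4.27 (median 3.58) in standard medium, without overlap, and rose (log2 difference 4.65, SE 0.28, adjusted p = 2.85e-23). Its standard level there is under the filter value of 5, near the dimmest probe sets, so the size of that difference is uncertain. The glycosyltransferase gene UGT73B5 rose in the endodermis at 3, 8 and 48 h, most at 8 h with 10.14, 9.83 and 9.70 against 8.67 to 9.17 (median 8.79) in standard medium, a change of 1.05 (adjusted p = 3.28e-10). The efflux carrier gene AT2G04050 rose in the stele at 20 h, with 6.16, 6.07 and 6.56 against 3.17 to 5.30 (median 4.47), a change of 1.89 (adjusted p = 1.52e-11). Its standard mean of 4.37 is also under 5, and the size of that change is likewise uncertain. UGT73B4 gave 0 calls.

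**Figure D5:**
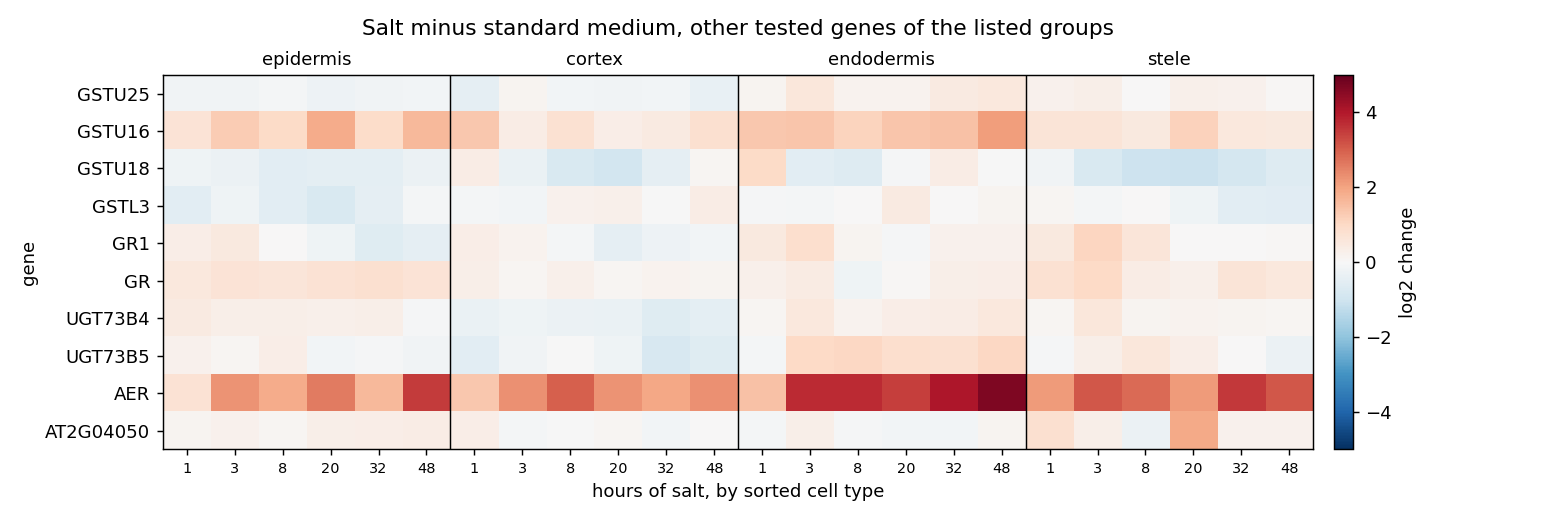
Salt minus standard medium (log2) for the tested genes of the other lists (down) by cell type and hour of salt (across). Red is higher on salt. AER reaches 4.65 and GSTU16 reaches 2.09 in the endodermis at 48 h, both from a standard mean under 5, and most other cells lie within 1 of 0.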

How the data were processed

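The deposited values are log2 expression values per probe set. They came from GCRMA in Affymetrix Expression Console, per the submitters' processing notes. GCRMA corrects background by probe sequence and normalizes across arrays. The genome build is not given in the sources used here. The deposited log2 table was used without further scaling, and array medians ran between 4.51 and 4.97. Of 22810 probe sets 13513 pair with exactly 1 gene in the platform annotation of 2016, and 13286 of 13356 genes matched TAIR10.1 by Entrez ID, which was used for names and gene order. Tau genes are similar in sequence, and cross-hybridisation between them was not tested. For a gene with more than 1 probe set the brightest was kept. A gene was tested where at least 1 group mean reached 5 (log2), which gave 7281 genes.

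One mean per group was fitted over 96 arrays with limma 3.58.1 in R 4.3.3 (lmFit and eBayes, 64 residual degrees of freedom), two-sided, with Benjamini-Hochberg adjustment over the 7281 genes of each comparison. Intervals are 95%. The fit was tested on simulated data first. Signal over an unknown background and the number of arrays limit precision. Alternatives were each standard group alone as the reference, quantile normalization, median centring, filters on low values, mean over probe sets, 1 cell type at a time, a replicate block, leaving out each array, and leaving out the 3 arrays that stood apart, the last added after the data were seen. The 4 genes and all lists were chosen with earlier results of these data known. Named besides the 4 genes are the 3 genes with the highest correlation to each, and of each list up to 4 called genes at their largest change, with marker genes and genes that gave no call named after their values were seen.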

Additional observations from a re-analysis of the deposited data

Results flagged for a closer look

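The difference of the salt response between the 4 cell types was tested directly, and 13 values passed the moderated F test (limma, adjusted p under 0.05) with a range of at least 1 on the log2 scale. Each value is the largest minus the smallest of the 4 changes at that time. GSTU28 ranged over 3.67 at 3 h (adjusted p = 6.64e-08), 2.42 at 8 h (0.000838), 3.07 at 20 h (4.76e-06), 1.82 at 32 h (0.00506) and 2.23 at 48 h (0.0006). GSTU27 ranged over 1.09 at 1 h (adjusted p = 0.00187), 1.26 at 3 h (0.00024), 1.04 at 20 h (0.00221), 1.71 at 32 h (7.47e-06) and 1.71 at 48 h (5.65e-06). GSTU26 ranged over 2.25 at 3 h (adjusted p = 8.02e-13), 1.7 at 8 h (5.1e-09) and 1.02 at 32 h (0.0025). By value alone, the smallest fall of GSTU28 was in the cortex at 3, 8 and 48 h and in the stele at 20 and 32 h, and its largest was in the endodermis at all 5 of these times. At 32 h the largest fall depended on replicate 1 of the epidermis in standard medium at 48 h. Without that array the epidermal change of GSTU28 was -4.09, against -3.99 in the endodermis. The largest fall of GSTU27 was in the epidermis at 32 and 48 h.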

How the results depend on the processing

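Called counts kept within 1.5 times of their values under every alternative, except the count between standard 48 h and 1 h, which was 0. It became 1 (GSTU27 in the stele) with the arrays of low correlation left out together, and was 0 to 1 with single arrays left out. GSTU27 in the stele was the call without stele replicates 2 or 3 of standard 1 h, or stele replicate 2 of standard 48 h. Without epidermis replicate 3 of standard 48 h the call was GSTU28 in the epidermis. Its 48 h arrays then left read 7.15 and 9.62, the first being the low replicate 1. With single arrays left out the salt counts ran between 11 and 13 (epidermis), 11 and 12 (cortex), 14 and 16 (endodermis) and 15 and 17 (stele). None of the 53 called falls changed sign. No call was lost in 49 of them with any 1 array left out, nor in 47 under the other alternatives. Against the 1 h standard arrays alone the calls of GSTU22 in the epidermis at 32 h (-0.94) and GSTU26 in the stele at 1 h (-0.81) were lost, and against the 48 h standard arrays alone 4 calls of GSTU27. Of the changes, 9 that were not called turned sign, to values of at most 0.16 in size. Against the 1 h standard arrays they were GSTU22 in the epidermis at 1 h (0.0357), and GSTU26 in the epidermis at 1 h (0.00966), 20 h (0.0344) and 48 h (0.0700), in the cortex at 32 h (-0.0147), in the endodermis at 48 h (0.16) and in the stele at 48 h (0.0276). Against the 48 h standard arrays they were GSTU26 in the endodermis at 32 h (-9e-05) and GSTU27 in the cortex at 3 h (0.0426). With quantile normalization GSTU22 in the epidermis at 1 h was 0.0337 and GSTU26 in the endodermis at 48 h was 0.0333, and with median centring GSTU26 in the cortex at 32 h was -0.12. With single arrays left out GSTU22 in the epidermis at 1 h ran between -0.0817 and 0.00453. GSTU26 in the same refits ran between -0.28 and 0.0465 in the epidermis at 1 h, -0.21 and 0.056 in the epidermis at 20 h, -0.0735 and 0.093 in the cortex at 32 h, and -0.0798 and 0.0549 in the endodermis at 48 h. The cause was not tested. Same-numbered arrays were not treated as pairs. The correlation of their deviations had medians of 0.0207 (epidermis), -0.0165 (cortex), -0.00422 (endodermis) and 0.0329 (stele), and ran between -0.469 and 0.613. It was over 0.1 in 34, 7, 16 and 30 of 84 pairs of arrays in these tissues. With single values so far apart, the check cannot decide whether some same-numbered arrays belong together. With replicate number as a block the calls were 12, 11, 14 and 16 in the epidermis, cortex, endodermis and stele, as without it. Cell type pairs gave 3 calls in place of 2. In that fit the levels of 2 cell types are compared as fitted for replicate 1, so the count of pairs is not one of means over replicates. Levels under a group mean of 5 and changes near 2-fold are the least certain.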
